A study of Mus musculus with 12 samples.

Results

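The 10 genes described here encode ubiquitin ligases of heart muscle. They were matched to the count table by their symbols, from a list drawn up with earlier results of these data known. They are the muscle RING finger ligases Trim63 (MuRF1), Trim55 (MuRF2) and Trim54 (MuRF3), the RING ligases Mdm2, Cblb and Rnf207, the U-box ligase Stub1 (CHIP), and the HECT ligases Nedd4, Nedd4l and Wwp1. Each of the 10 symbols matched 1 row of the count table, which holds 54949 features, and all 10 passed the filter on low counts with at least 230 counts in every library. In the HF-named libraries Trim63, Mdm2 and Nedd4 rose, 0 of the 10 fell, and 7 did not pass the test. Of all genes tested 13.3% passed, and 8.28% passed as higher. In 12 fits that each left out 1 library, Trim63 passed every time, whereas Mdm2 lost its call in 5 and Nedd4 in 8.

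The libraries hold poly-A RNA from ventricles, with the atria removed, of wild-type male C57BL/6N mice. The study modelled heart failure with preserved ejection fraction (HFpEF), a failure of filling with little loss of pumping, by feeding a high-fat diet and giving the nitric oxide synthase inhibitor L-NAME at 0.5 g/L in the water. The model began at 8 weeks of age and ran for 5 weeks, and control mice had normal food and water. The labels of all 12 samples contradict each other. The 6 HF-named libraries (HF-1 to HF-6 in the sample descriptions and in the count table) are titled CON and labelled with normal diet and water. The 6 con-named libraries (con-1 to con-6) are titled HFpEF and labelled with the high-fat diet and L-NAME. Groups are called here by their library names because the labels do not settle which group received the diet with L-NAME. Every fold change has the HF-named group on top. The authors' deposited comparison table also uses the names HF and control. The design text gives 5 bulk samples per group where 6 are listed. No label says that the libraries of a group came from separate mice, so the p-values reflect how far these libraries vary, which may be technical.

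Ubiquitin ligases are the last enzymes of a cascade in which an E1 activates ubiquitin, an E2 carries it, and the ligase chooses the protein that receives it, often for destruction by the proteasome. RING and U-box ligases bring the loaded E2 next to the substrate, whereas HECT ligases first take the ubiquitin onto themselves. In heart and skeletal muscle the muscle RING ligases sit at the sarcomere and on microtubules and turn over proteins of the contractile apparatus. FoxO transcription factors and the glucocorticoid receptor are known to switch on Trim63 when muscle wastes.

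Total counts ran between 14443186 and 22048689 per library, and their difference between groups did not pass an exact permutation test over all 924 splits (two-sided p = 0.835). Mitochondrial transcripts took 25.2 ± 1.19% of counts in HF-named libraries and 22.4 ± 1.1% in con-named libraries (SD over the 6 libraries of each group), with an exact permutation p of 0.00433. Cardiomyocyte markers summed to between 67320 and 74161 CPM (counts scaled to a common library size) in HF-named libraries and between 65798 and 74602 CPM in con-named libraries, and of the 10 genes Ryr2 rose and 5 fell. All 6 adipocyte markers stayed at 4 counts or fewer. Of the 5 atrial markers Nppa had between 384 and 2831 counts per library, Myl4 between 12 and 63, and Myl7, Sln and Bmp10 at most 27, 16 and 1. The atrial sums ran from 22.9 to 192 CPM in HF-named and from 63.7 to 127 CPM in con-named libraries, and neither of the 2 tested genes passed. Skeletal muscle markers, which include the Ckm also counted as a cardiomyocyte marker, summed to between 1054 and 1235 CPM in HF-named and between 1095 and 1305 CPM in con-named libraries, with 1 of 4 tested lower (Ckm) and the myosin genes Myh1, Myh2 and Myh4 at no more than 3, 2 and 18 counts. Fibroblast markers summed to between 1218 and 1489 CPM in HF-named libraries and between 1486 and 1907 CPM in con-named libraries, and 4 of 10 fell. Endothelial markers summed to between 1053 and 1593 CPM in HF-named and between 1337 and 1745 CPM in con-named libraries (3 of 10 fell), and macrophage markers to between 213 and 282 CPM in HF-named and between 253 and 345 CPM in con-named libraries (3 of 10 fell). Of the 8 tested pericyte and smooth muscle markers 0 passed, with sums between 1399 and 1590 CPM in HF-named and between 1216 and 1382 CPM in con-named libraries. Erythroid markers summed to between 334 and 665 CPM in HF-named and between 304 and 518 CPM in con-named libraries (median log2 fold change 0.34), and 1 of 5 rose, Hba-a2 (0.58, edgeR adjusted p = 0.0364), a globin gene that can share reads with its near-identical copy Hba-a1 (0.33, adjusted p = 0.135). Of the tested lymphocyte, neutrophil and Schwann cell markers 0 passed, and each of these lists summed to at most 14.2 CPM in any library. The part of these shifts in any result on the ligases was not tested, and in bulk tissue fewer cells of a type and less RNA per cell cannot be told apart.

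Of 15114 genes tested with edgeR's quasi-likelihood test, 2016 passed a Benjamini-Hochberg adjusted p of 0.05 (13.3%), and 1252 of these were higher in HF-named libraries (8.28%). Among the 10 ligases 3 were higher, a count given beside that background as a description only. The median log2 fold change of the ligases was 0.12, against -0.01 over all genes tested, and their median absolute log2 fold change was 0.13, the same as that of all genes (0.13). In TMM-scaled CPM, Mdm2 alone among the 10 had all 6 HF-named libraries above all 6 con-named libraries, a pattern that 3.41% of tested genes showed. In deposited FPKM, which are scaled by library totals, the Mdm2 groups overlapped. Called genes had a median absolute log2 fold change of 0.29, and among the ligases Trim63 alone was above it.

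**Figure D1:**
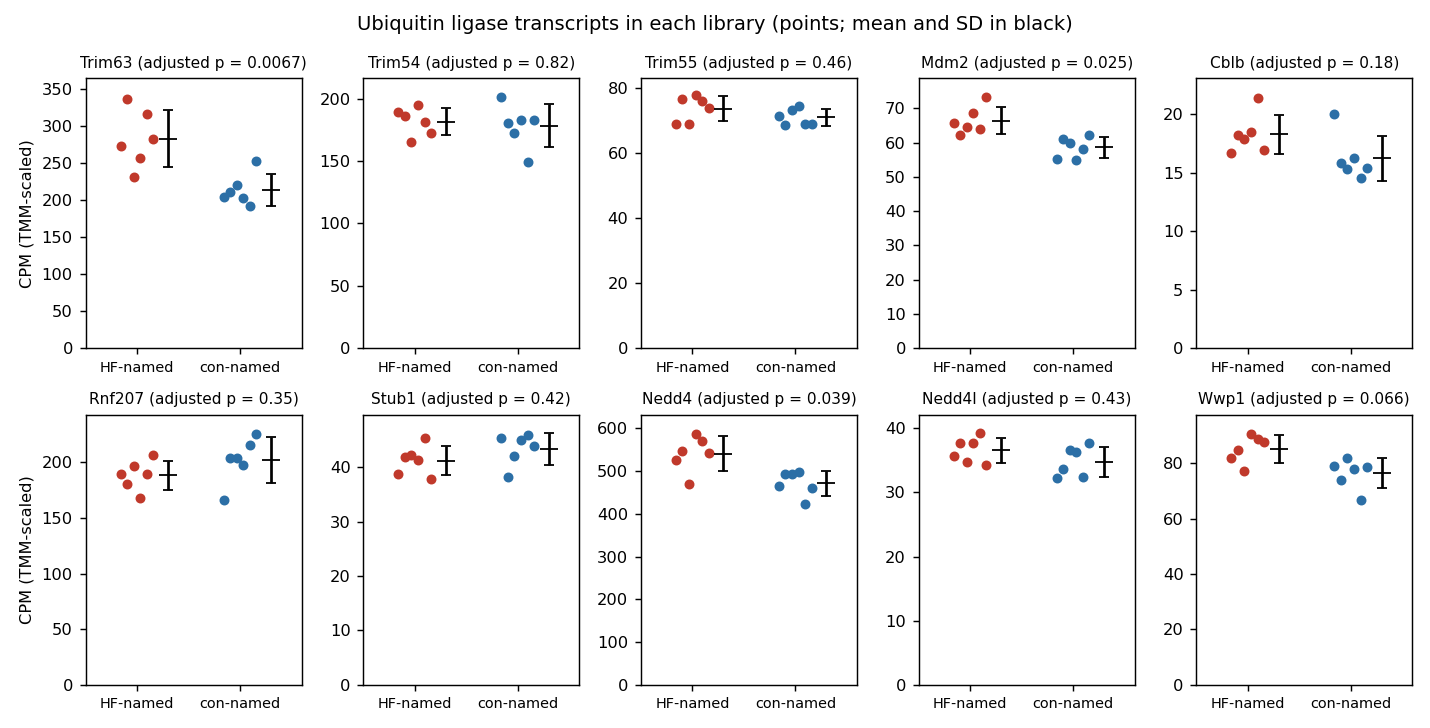
CPM scaled by TMM (vertical axis, from 0) of each of the 10 ligase genes in the 6 HF-named (red, left) and 6 con-named (blue, right) libraries, with the mean and SD in black and the edgeR adjusted p above each panel. The groups are fully apart in the Mdm2 panel, and 5 of 6 HF-named points lie above all con-named points for Trim63 and Nedd4. For Cblb 5 of 6 con-named points lie below all HF-named points, and the remaining panels overlap more widely.

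Trim63 encodes the muscle RING ligase that adds ubiquitin to troponin I and other thick and thin filament proteins during muscle wasting. It lies on mm10 at chr4:134315120-134329629 on the plus strand, and no exon base is shared with another annotated gene. Its lowest, median and highest values were 231, 277 and 336 CPM in HF-named libraries, against 192, 207 and 252 CPM in con-named libraries. HF-named replicate 2 was the highest library and con-named replicate 5 the lowest, and the groups overlapped through con-named replicate 6 and HF-named replicate 3. Means were 282 ± 38.5 CPM in HF-named and 213 ± 21.1 CPM in con-named libraries (SD, n = 6 each), a 1.32-fold rise (log2 fold change 0.40, SE 0.085, adjusted p = 0.00668 by edgeR). All 6 HF-named libraries were above the con-named mean. The gene passed in each of the 12 fits that left out 1 library (log2 fold change 0.35 to 0.46, adjusted p at most 0.0194).

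Trim54, whose product binds and stabilises microtubules in muscle and pairs with the other muscle RING proteins, did not pass the test. Its lowest, median and highest values were 165, 184 and 195 CPM in HF-named libraries and 149, 182 and 201 CPM in con-named libraries. The whole HF-named range lay inside the con-named range. The log2 fold change was 0.03 (SE 0.064, edgeR adjusted p = 0.825), and it changed sign to -0.09 with library totals in place of TMM and to -0.03 without con-named replicate 5. The gene lies at chr5:31116712-31137630 on the plus strand, and 26.6% of its exon bases are shared with Gm15469 on the opposite strand, which reached no more than 58 counts in any library.

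Trim55 encodes the muscle RING protein that links titin, myosin and microtubules during sarcomere assembly, and it lies at chr3:19644474-19692421 on the plus strand. It measured 69.0, 75 and 77.9 CPM as lowest, median and highest in HF-named libraries and 68.7, 70.3 and 74.6 CPM in con-named libraries. Of the HF-named libraries 3 were above all con-named ones and 3 were inside their range. Its log2 fold change, 0.05 (SE 0.045, adjusted p = 0.463 by edgeR), did not pass, and it was -0.06 with library totals.

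Ratios of counts within a library do not depend on how libraries are scaled, so they show directly whether the muscle RING genes changed unequally. The log2 ratio of Trim63 to Trim54 counts was 0.63 ± 0.19 in HF-named and 0.26 ± 0.16 in con-named libraries (SD, n = 6 each), a difference of 0.37 by an exact permutation test over 924 splits (two-sided p = 0.00433, adjusted p = 0.026 over the 6 ratios compared). The log2 ratio of Trim63 to Trim55 was 1.93 ± 0.17 in HF-named and 1.58 ± 0.16 in con-named libraries, a difference of 0.35 (exact permutation p = 0.00866, adjusted p = 0.026). For both ratios all 6 HF-named libraries were above the con-named mean, although the groups overlapped. The ratio of Trim55 to Trim54 differed by 0.02 (exact permutation p = 0.751, adjusted p = 0.751). With 1 library left out the adjusted p reached 0.0519 for Trim63 to Trim54 (without HF-named replicates 2 or 5 or con-named replicate 4) and for Trim63 to Trim55 (without HF-named replicates 1, 2 or 5 or con-named replicate 4), with differences of at least 0.32 and 0.30.

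**Figure D2:**
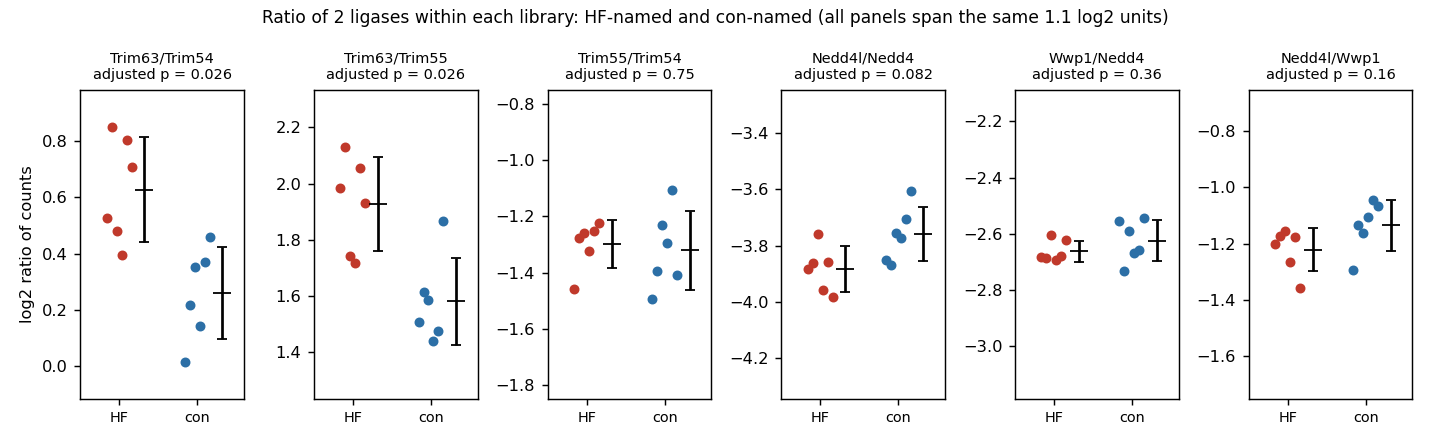
Log2 ratio of the counts of 2 ligase genes within each library (vertical axis, every panel spanning the same 1.1 log2 units) for HF-named (red, left) and con-named (blue, right) libraries, with mean and SD in black and the exact permutation p adjusted over the 6 ratios. Both ratios with Trim63 on top are shifted upward in HF-named libraries, by 0.37 and 0.35, and the means of the ratio of Trim55 to Trim54 are 0.02 apart.

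The promoters of Trim63 and Trim54 are shown because the ratio of their counts differed between the groups. Each sequence is the stretch of 250 bases before a RefSeq transcript start (RefSeq promoter table, build GRCm38.p6), and such windows were found for 6 of the 10 genes. Both strands were searched for the FoxO core TGTTTAC, found in 3.17% of 32851 mouse promoter windows of this length, and for the glucocorticoid receptor half-site AGAACA, found in 16.1%. Capitals mark matches on either strand, and a match is a description of letters and not a site of binding.
Trim63, chr4:134314870-134315119, plus strand: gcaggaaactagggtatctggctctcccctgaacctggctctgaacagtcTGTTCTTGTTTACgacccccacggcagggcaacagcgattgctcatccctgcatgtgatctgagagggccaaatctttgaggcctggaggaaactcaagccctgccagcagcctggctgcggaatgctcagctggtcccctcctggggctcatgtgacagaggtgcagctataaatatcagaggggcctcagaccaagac
Trim54, chr5:31116362-31116611, plus strand: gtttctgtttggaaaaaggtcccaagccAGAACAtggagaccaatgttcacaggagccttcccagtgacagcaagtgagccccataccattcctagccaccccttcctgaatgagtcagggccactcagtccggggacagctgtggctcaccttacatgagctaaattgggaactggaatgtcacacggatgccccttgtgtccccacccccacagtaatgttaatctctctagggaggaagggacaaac
In the Trim63 window the half-site on the opposite strand (bases -200 to -195 from the start) touches the FoxO core (bases -194 to -188), so that the capitals form 1 run. The search took exact letters only. It left unmarked the tgaaca that stands before this half-site, with gtc between, and differs from AGAACA in its first letter. The marks therefore do not show whether the half-site is part of a longer element. The motifs searched belong to factors already known to switch on Trim63, so the shares of windows are a description and not a test. Both motifs occurred together in 0.691% of windows and with no base between them in 4 windows (0.0122%), a spacing looked up after it had been seen in Trim63. Of the genes with the other such windows, Smtnl1 and Myt1 were not tested and Gsap had a log2 fold change of 0.03 (edgeR adjusted p = 0.911). The Trim54 window held the half-site at bases -222 to -217 and no FoxO core. The windows of Cblb and Stub1, searched in the same way and not shown, held neither motif.

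Mdm2, the ligase that holds the tumour suppressor p53 low, had the smallest spread of the 3 genes that rose. Its lowest, median and highest values were 62.4, 65.2 and 73.4 CPM in HF-named libraries, against 55, 59.1 and 62.3 CPM in con-named libraries. In these TMM-scaled values the groups did not overlap, with HF-named replicate 2 and con-named replicate 6 the libraries that came closest to each other. In deposited FPKM, which are scaled by library totals, they overlapped, with HF-named replicate 5 at 11.4 and con-named replicate 2 at 13.0. Means were 66.5 ± 3.99 CPM in HF-named and 58.6 ± 3.01 CPM in con-named libraries (SD, n = 6 each), a 1.13-fold rise (log2 fold change 0.18, SE 0.050, edgeR adjusted p = 0.0252). The call was lost without HF-named replicates 4 or 6 or con-named replicates 1, 4 or 5 (adjusted p up to 0.0594), and with library totals the log2 fold change was 0.07 (adjusted p = 0.429). The gene lies at chr10:117688875-117710758 on the minus strand and shares no exon base. Its promoter window is shown because it too holds the FoxO core, on the opposite strand at bases -153 to -147 from the start, in capitals.
Mdm2, chr10:117710759-117711008, minus strand: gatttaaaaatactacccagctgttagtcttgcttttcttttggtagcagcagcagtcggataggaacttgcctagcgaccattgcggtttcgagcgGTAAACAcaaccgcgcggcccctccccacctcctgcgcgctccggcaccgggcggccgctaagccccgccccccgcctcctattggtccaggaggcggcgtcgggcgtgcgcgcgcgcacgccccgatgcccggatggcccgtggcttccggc

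Cblb encodes a RING ligase of the Cbl family that acts on receptor tyrosine kinases and, in unloaded muscle, on the insulin receptor substrate. It lies at chr16:52031225-52208048 on the plus strand. Its lowest, median and highest values were 16.7, 18.0 and 21.4 CPM in HF-named libraries and 14.6, 15.6 and 20.0 CPM in con-named libraries. In the con-named group replicate 1 stood apart, and the other 5 libraries lay between 14.6 and 16.2 CPM, below all HF-named libraries. The log2 fold change was 0.17 (SE 0.081, edgeR adjusted p = 0.180) with all libraries and 0.24 (adjusted p = 0.0390) without con-named replicate 1.

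Rnf207 and Stub1 were the members with negative log2 fold changes, and neither passed the test. Rnf207, a RING protein linked to the HERG potassium channel and to the QT interval in people, measured 168, 190 and 206 CPM as lowest, median and highest in HF-named libraries and 166, 204 and 226 CPM in con-named libraries. All HF-named libraries lay inside the con-named range, and the log2 fold change was -0.10 (SE 0.068, edgeR adjusted p = 0.354). The gene lies at chr4:152307019-152318993 on the minus strand.

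Stub1, which works with heat shock chaperones to mark misfolded proteins, measured 37.8, 41.6 and 45.3 CPM as lowest, median and highest in HF-named libraries and 38.1, 44.5 and 45.9 CPM in con-named libraries. The log2 fold change was -0.07 (SE 0.058, edgeR adjusted p = 0.425), and 1 HF-named library was below all con-named ones. With library totals it was -0.19 (adjusted p = 0.0273). At chr17:25830505-25833404 on the minus strand, the gene shares 42.3% of its exon bases with Jmjd8 on the opposite strand. Jmjd8 reached 243 counts at most. The strand setting of the counting is not stated, so it is not known whether reads of the overlap went to either gene or were left out.

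Nedd4, the founding member of the HECT family that recognises membrane proteins through WW domains, also rose. Its lowest, median and highest values were 470, 545 and 587 CPM in HF-named libraries, against 422, 479 and 497 CPM in con-named libraries. HF-named replicate 3 alone lay inside the con-named range, and the other 5 HF-named libraries were above all con-named ones. Means were 541 ± 40.6 CPM in HF-named and 472 ± 29.0 CPM in con-named libraries (SD, n = 6 each), a 1.146-fold rise (log2 fold change 0.20, SE 0.060, edgeR adjusted p = 0.0387). The call was lost in 8 of 12 fits without 1 library (HF-named replicates 1, 2, 4, 5 or 6 and con-named replicates 1, 5 or 6, adjusted p up to 0.0918), and with library totals the value was 0.08 (adjusted p = 0.246). Nedd4 lies at chr9:72662346-72749852 on the plus strand and shares no exon base. RefSeq gives it 2 starts, and the window of the inner start, shown because it alone held a match, has the half-site on the opposite strand at bases -216 to -211, in capitals.
Nedd4 inner start, chr9:72693048-72693297, plus strand: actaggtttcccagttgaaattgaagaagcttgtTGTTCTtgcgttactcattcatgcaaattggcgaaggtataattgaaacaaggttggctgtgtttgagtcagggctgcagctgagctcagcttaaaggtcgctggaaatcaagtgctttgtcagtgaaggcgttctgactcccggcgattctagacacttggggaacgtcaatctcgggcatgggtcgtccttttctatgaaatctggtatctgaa

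Wwp1, a HECT ligase of the same family known to act on KLF transcription factors, came closest to the threshold of the genes that did not pass. Its lowest, median and highest values were 77.3, 86.4 and 90.8 CPM in HF-named libraries and 66.8, 78.5 and 81.9 CPM in con-named libraries. Of the HF-named libraries 4 were above all con-named ones, and all 6 were above the con-named mean. The log2 fold change was 0.16 (SE 0.055, edgeR adjusted p = 0.0658), and it passed without HF-named replicate 3 (adjusted p = 0.0276). The gene lies at chr4:19608303-19708993 on the minus strand.

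Nedd4l, the relative that removes sodium channels from the cell surface, measured 34.2, 36.6 and 39.3 CPM as lowest, median and highest in HF-named libraries and 32.2, 35 and 37.7 CPM in con-named libraries. The groups overlapped, with 4 of 6 HF-named libraries inside the con-named range. The log2 fold change was 0.07 (SE 0.055, edgeR adjusted p = 0.427), and it was -0.04 with library totals. Nedd4l lies at chr18:64887705-65217828 on the plus strand.

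Within libraries, none of the ratios between the HECT ligases passed after adjustment over the 6 ratios. The log2 ratio of Nedd4l to Nedd4 counts was -3.88 ± 0.08 in HF-named and -3.76 ± 0.10 in con-named libraries (SD, n = 6 each), a difference of -0.12 (exact permutation p = 0.0411, adjusted p = 0.0823), and 1 of 6 HF-named libraries was above the con-named mean. It passed without HF-named replicate 3 (adjusted p = 0.0390), con-named replicate 1 (adjusted p = 0.0455) or con-named replicate 2 (adjusted p = 0.0390). The ratio of Nedd4l to Wwp1 differed by -0.09 (exact permutation p = 0.106, adjusted p = 0.159, or 0.0303 without con-named replicate 1) and that of Wwp1 to Nedd4 by -0.04 (exact permutation p = 0.297, adjusted p = 0.356).

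The authors' deposited table gave the same 3 members an adjusted p under the threshold, where 5.11% of its 33183 genes with an adjusted p were under it. In the authors' deposited table the log2 fold changes were 0.41 for Trim63 (adjusted p = 0.000485), 0.19 for Mdm2 (adjusted p = 0.0201) and 0.20 for Nedd4 (adjusted p = 0.0283). Wwp1 came next in the authors' deposited table with 0.16 (adjusted p = 0.118), and the other 6 members had adjusted p of 0.436 or more there.

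**Figure D3:**
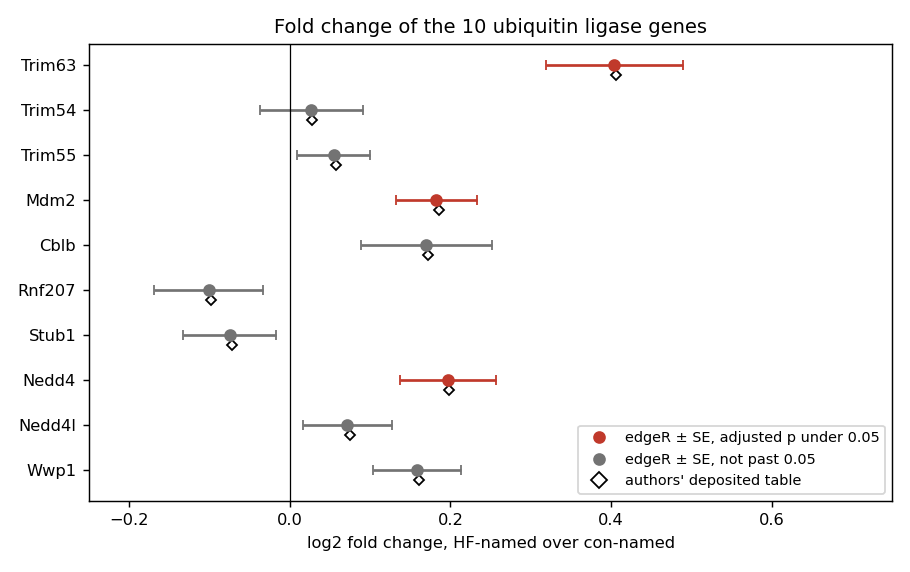
Log2 fold change, HF-named over con-named (horizontal axis), of the 10 ligase genes with edgeR's standard error (circles and bars, red where the adjusted p was under 0.05) and as the authors' deposited table gives it (open diamonds). Trim63 lies farthest from 0 at 0.40, Mdm2 and Nedd4 follow at 0.18 and 0.20, and Rnf207 and Stub1 lie below 0.

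Levels were compared between genes per transcript length, as deposited FPKM, over all 12 libraries. Trim54 was highest (125 ± 9.03 FPKM, mean ± SD, n = 12) and Cblb lowest (1.64 ± 0.133 FPKM), a 76.3-fold span in mean FPKM. Trim63 came next (86.5 ± 12.6 FPKM) and was below Trim54 in 12 of 12 libraries, although the ranges of the genes overlapped. The muscle RING gene that rose was not the most abundant of its kind per length. This order rests on the lengths behind the FPKM, 2842 bases for Trim63 and 1436 for Trim54. In counts Trim63 was above Trim54 in every library, with a log2 ratio of at least 0.395 in HF-named and 0.0153 in con-named libraries.

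Nedd4 (45.9 ± 2.72 FPKM, n = 12) stood apart from its neighbours in that order, above and below. Rnf207 (30.9 ± 4.0 FPKM), Trim55 (27.2 ± 1.03 FPKM) and Stub1 (25.3 ± 2.30 FPKM) overlapped, each above the next in 9 of 12 libraries. Wwp1 (12.5 ± 0.497 FPKM) and Mdm2 (12.3 ± 0.873 FPKM) could not be ordered, with Wwp1 higher in 6 of 12 libraries. Nedd4l (2.47 ± 0.123 FPKM) was well below them and above Cblb in all 12. The length behind the deposited FPKM of Stub1 (1672 bases) and Nedd4l (14382 bases) is shorter than the exons of the GENCODE M21 annotation (2561 and 17659 bases), so their place in FPKM depends on the length used.

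**Figure D4:**
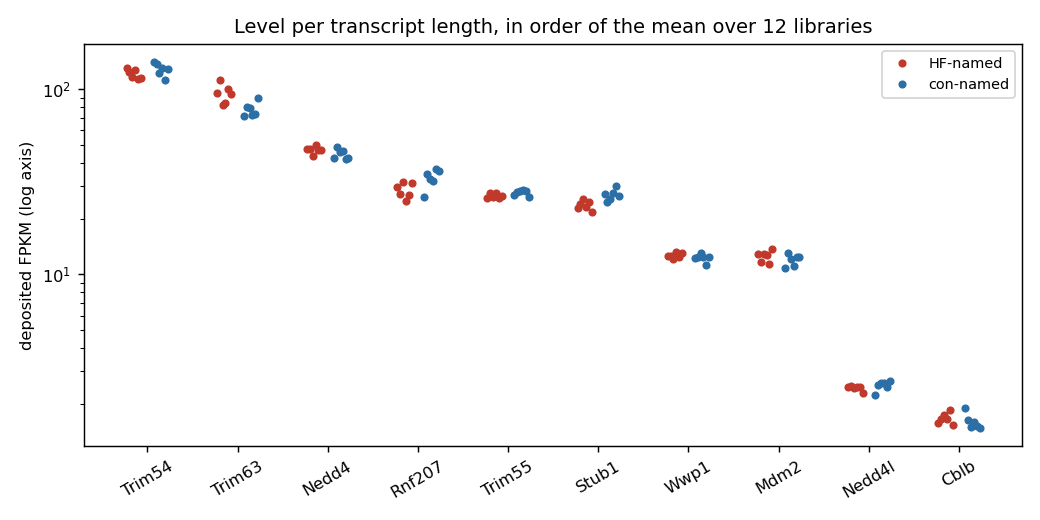
Deposited FPKM (vertical log axis) of the 10 ligase genes in each HF-named (red, left) and con-named (blue, right) library, in order of the mean over 12 libraries. Trim54 and Trim63 lead at 125 and 86.5 FPKM, Rnf207, Trim55 and Stub1 overlap, as do Wwp1 and Mdm2, and Nedd4l and Cblb are lowest.

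Genes that act before, beside or after the ligases were grouped into lists, whose counts stand against the background of 13.3% called and whose medians stand beside -0.01 over all genes. Values in parentheses after CPM or a gene name are log2 fold changes, and ± is the SD over 6 libraries. The abundant ubiquitin gene Ubb, added after its values were seen, measured 391.8 ± 20.4 CPM in HF-named and 386 ± 20.9 CPM in con-named libraries (0.02, edgeR adjusted p = 0.832). Of 26 E2 conjugating enzymes 3 rose and 0 fell (median 0.03): Ube2g1 (0.24, edgeR adjusted p = 0.00787), Ube2l3 (0.15, adjusted p = 0.0243) and Ube2h (0.20, adjusted p = 0.0335). Ube2g1 passed in all fits without 1 library. The call of Ube2l3 was lost without HF-named replicates 2, 4 or 5 or con-named replicates 2, 5 or 6 (adjusted p up to 0.0667), and that of Ube2h without HF-named replicates 2, 4, 5 or 6 or con-named replicates 2, 3, 5 or 6 (adjusted p up to 0.0931).

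Among 12 other ligases and ligase subunits of muscle, 4 rose and 1 fell, with a median log2 fold change of 0.18. Fbxo32 (atrogin-1), the F-box partner of Trim63 in muscle wasting, measured 263 ± 47.2 CPM in HF-named and 175 ± 30.1 CPM in con-named libraries (SD, n = 6 each; 0.59, SE 0.127, edgeR adjusted p = 0.00772). Fbxo40, which marks the insulin receptor substrate, measured 307 ± 34.2 CPM in HF-named and 223 ± 19.0 CPM in con-named libraries (0.46, SE 0.076, adjusted p = 0.00173), with no overlap between groups. Fbxo30, known as a ligase of atrophying muscle, measured 37.6 ± 5.13 CPM in HF-named and 27.5 ± 1.78 CPM in con-named libraries (0.45, SE 0.081, adjusted p = 0.00268), again with no overlap. These 3 log2 fold changes were each above that of Trim63 (0.40). The remaining calls, named after their values were seen, were Asb2, a subunit that directs filamin to destruction (0.23, adjusted p = 0.0363), and Neurl2, a subunit of a muscle Cullin complex, which fell (-0.23, adjusted p = 0.0255).

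Of 16 tested genes that drive or follow muscle wasting through FoxO and glucocorticoid signals, 4 rose and 0 fell (median 0.10). Foxo4, a FoxO factor, measured 83.3 ± 7.95 CPM in HF-named and 63.3 ± 6.75 CPM in con-named libraries (0.40, SE 0.076, edgeR adjusted p = 0.00389). Nr3c1, the glucocorticoid receptor gene, measured 105 ± 4.88 CPM in HF-named and 87.7 ± 6.44 CPM in con-named libraries (0.26, SE 0.053, adjusted p = 0.00552), without overlap. Bnip3, a mitophagy gene driven by FoxO factors, measured 128 ± 21.2 CPM in HF-named and 87.5 ± 14.5 CPM in con-named libraries (0.55, SE 0.114, adjusted p = 0.00606). The 4th call was Gabarapl1, an autophagy gene (0.30, adjusted p = 0.0217), named after its values were seen, as were the genes that did not pass in the next sentence. Foxo1 (0.08, adjusted p = 0.359), Foxo3 (0.27, adjusted p = 0.162) and the glucocorticoid targets Tsc22d3 (-0.09, adjusted p = 0.578), Fkbp5 (0.18, adjusted p = 0.686) and Klf15 (0.22, adjusted p = 0.347) did not pass. With library totals Nr3c1 had 0.14 (adjusted p = 0.116).

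The known partners and substrates of the muscle RING ligases went both ways: of 20, 5 rose and 4 fell (median 0.10). Ttn, the gene of titin, which holds the muscle RING proteins at the M-line, measured 5198 ± 391 CPM in HF-named and 3940 ± 274 CPM in con-named libraries (0.40, SE 0.067, edgeR adjusted p = 0.00179). Fhl1, a LIM protein that binds titin, measured 107 ± 5.08 CPM in HF-named and 82.4 ± 7.44 CPM in con-named libraries (0.37, SE 0.058, adjusted p = 0.00127). Tcap, the titin cap of the Z-disc, measured 1355 ± 91.3 CPM in HF-named and 1717 ± 81.8 CPM in con-named libraries (-0.34, SE 0.057, adjusted p = 0.00182). For each of these 3 genes the groups did not overlap. The other 3 that rose, named after their values were seen, were Ppara, a regulator of fatty acid use (0.57, adjusted p = 0.00905), the protein kinase C gene Prkce (0.18, adjusted p = 0.0124) and the transcription factor gene Srf (0.18, adjusted p = 0.0389). The other 3 that fell, named after their values were seen, were the Trim63 substrate Tnni3 (-0.25, adjusted p = 0.0187), Tnnt2 (-0.23, adjusted p = 0.0478) and Ckm (-0.17, adjusted p = 0.0474), which also stand in the cardiomyocyte marker list.

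Of 13 tested relatives, adaptors and regulators of the NEDD4 family, 3 rose and 0 fell (median 0.05). Smurf2, a HECT ligase of the TGF-beta pathway, measured 42.0 ± 1.67 CPM in HF-named and 33.8 ± 2.96 CPM in con-named libraries (0.31, SE 0.058, edgeR adjusted p = 0.00325). Itch, a HECT ligase best known from immune cells, measured 32.8 ± 0.63 CPM in HF-named and 29.1 ± 1.22 CPM in con-named libraries (0.17, SE 0.045, adjusted p = 0.0206), and had 0.05 (adjusted p = 0.522) with library totals. The groups did not overlap for either gene. The adaptor gene Arrdc3 (0.35, adjusted p = 0.0487) lost its call in 9 of 12 fits without 1 library, all but those without HF-named replicate 3 or con-named replicates 1 or 3 (adjusted p up to 0.121).

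Of 7 ion channel and transporter genes whose proteins NEDD4-family ligases or Rnf207 are known to act on, 1 rose and 1 fell (median 0.08). Kcnh2, the HERG channel gene, measured 82.2 ± 7.44 CPM in HF-named and 98.9 ± 6.64 CPM in con-named libraries (-0.27, SE 0.063, edgeR adjusted p = 0.0124), with no overlap. Cacna1c, the L-type calcium channel gene, measured 412 ± 59.6 CPM in HF-named and 334 ± 21.1 CPM in con-named libraries (0.30, SE 0.082, adjusted p = 0.0234), a call lost without HF-named replicates 2 or 5 (adjusted p up to 0.0581).

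Of 15 tested genes of the p53 pathway around Mdm2, 1 rose and 2 fell (median -0.02). Tigar, a p53 target that restrains glycolysis, measured 64.7 ± 4.03 CPM in HF-named and 50.01 ± 1.95 CPM in con-named libraries (0.37, SE 0.049, edgeR adjusted p = 0.000668), with no overlap. Bax (-0.29, adjusted p = 0.0321) and Phlda3 (-0.39, adjusted p = 0.0396), p53 targets that promote cell death, fell. The call of Bax was lost without HF-named replicates 1, 4, 5 or 6 or con-named replicates 2 or 5 (adjusted p up to 0.0764), and that of Phlda3 without HF-named replicates 1, 2, 4 or 5 or con-named replicates 2, 4, 5 or 6 (adjusted p up to 0.0895). The classical p53 target Cdkn1a (0.23, adjusted p = 0.410) and the p53 gene Trp53 (-0.23, adjusted p = 0.0705), both named after their values were seen, did not pass.

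Of 11 tested Cbl relatives and receptors, the insulin receptor gene Insr rose and 0 fell (median -0.03). Insr measured 229 ± 30.9 CPM in HF-named and 191 ± 17.8 CPM in con-named libraries (0.27, SE 0.085, edgeR adjusted p = 0.0455). Its call was lost in 8 of 12 fits without 1 library, all but those without HF-named replicates 1, 3 or 6 or con-named replicate 3 (adjusted p up to 0.110).

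Of 16 chaperones and co-chaperones that work with Stub1, 6 rose and 0 fell (median 0.19), while Stub1 itself did not pass. Hspa4, a nucleotide exchange partner of the heat shock chaperones, measured 182 ± 7.49 CPM in HF-named and 150 ± 6.02 CPM in con-named libraries (0.28, SE 0.045, edgeR adjusted p = 0.00144), with no overlap. Hsp90aa1, an inducible chaperone gene, measured 138 ± 9.34 CPM in HF-named and 114 ± 6.69 CPM in con-named libraries (0.28, SE 0.054, adjusted p = 0.00453), and had 0.16 (adjusted p = 0.0704) with library totals. Hspb1, a small heat shock protein gene, measured 125 ± 12.0 CPM in HF-named and 99.0 ± 9.18 CPM in con-named libraries (0.34, SE 0.071, adjusted p = 0.00684). With library totals the median log2 fold change of the list was 0.07, and the medians of the 9 lists described ran down to -0.14 (Cbl relatives and receptors), where that of all genes was -0.13; all but those of the other muscle ligases and the chaperones were then below 0. Under that scaling the calls of Ube2l3, Ube2h, Arrdc3, Cacna1c and Insr were lost as well (adjusted p 0.0645 to 0.501). Without the low-count filter the calls of Ube2l3, Ube2h, Itch and Insr were lost (adjusted p 0.0640 to 0.104), and so were those of the ligases Mdm2 (adjusted p = 0.0744) and Nedd4 (adjusted p = 0.116). Arrdc3 lost its call with RLE size factors, without mitochondrial transcripts and with the filter of 1 CPM in 6 libraries (adjusted p 0.05002 to 0.0518).

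**Figure D5:**
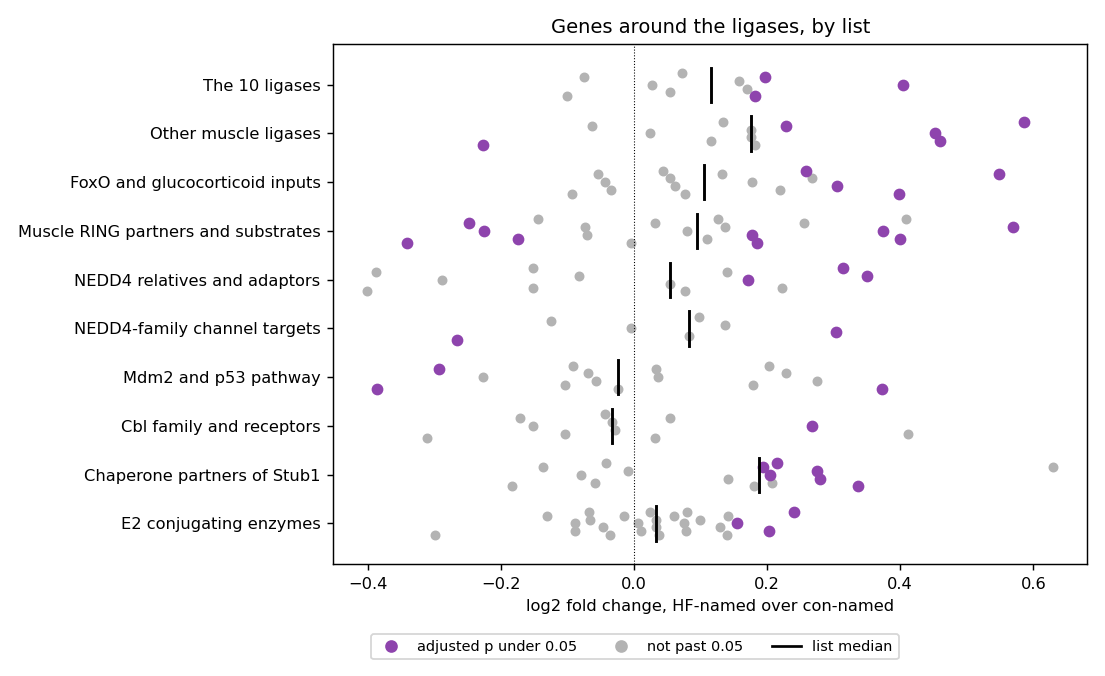
Log2 fold change, HF-named over con-named (horizontal axis), of each tested gene of the 10 ligases and of 9 lists of genes around them, in purple where the edgeR adjusted p was under 0.05 and grey otherwise, with the median of each list as a black bar. Purple points of the other muscle ligases and of the Stub1 chaperones lie mostly right of 0, whereas those of the muscle RING partners lie on both sides.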

How the data were processed

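The authors deposited raw read counts per gene for 12 libraries. The tools HISAT2 2.0.5, HTSeq 0.9.1 and cutadapt 1.15 and the build mm10 are listed per the submitters' processing notes. For the annotation release and the strand setting, the entry is: not given in the sources used here. The deposited FPKM values equal the count divided by the library total and 1 length per gene (10721 of 10721 genes with 50 or more counts everywhere, within 1%). The authors' table of their own comparison holds group means of scaled counts (a signal), log2 fold changes and p-values with adjusted p-values.

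Library names in the description labels set the groups, and count columns were matched by the same names. From the counts, filterByExpr kept 15114 of 54949 features. After TMM scaling these entered the two-sided quasi-likelihood test of edgeR 4.0.16 (limma 3.58.1, R 4.3.3) with group alone in the model, and p-values were adjusted by Benjamini-Hochberg across the 15114. Every adjusted p of a gene is from this test unless another source is named. CPM values are counts scaled to a common TMM-adjusted library size. An SE is the size of the log2 fold change divided by the root of F. Ratios used counts plus 0.5. The test was checked on simulated data of 14970 genes, with 50 genes changed at each fold size. Fewer genes changed there than the 2016 called in the data, so the shares recovered in the data may differ. In the simulation the test recovered 40% of the genes changed 1.25-fold and 68% of those changed 1.5-fold. A gene that did not pass may therefore still have changed.

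The members and lists were chosen with earlier results of these data known. Named outside the 10 ligases were the 3 genes of smallest p of a list with at least 3 calls, otherwise its called genes, leaving out genes under 1 CPM. Other names are said to have been added after their values were seen. Some genes of the lists are not reported here. Alternatives were RLE size factors, library totals, mitochondrial transcripts left out, a filter of 1 CPM in 6 libraries, no filter beyond 1 count, DESeq2 1.42.0, limma-voom, limma on log2(FPKM + 1) and log2(FPKM + 0.1), leaving out each library, the replicate number as a block, and an added count of 5 in the ratios. No 2 libraries of a group agreed within sampling noise (chi-square per degree of freedom at least 4.02). Coordinates and exon overlaps are from GENCODE M21.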

Additional observations from a re-analysis of the deposited data

Results flagged for a closer look

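In 86 groups of 6 libraries examined for a library far from the others, 2 values passed Dixon's 95% limit for the gap over the range. Chance gives such a flag in about 1 in 20 groups. The first was Cblb in con-named replicate 1, at 20.0 CPM where the other 5 con-named libraries lay between 14.6 and 16.2 CPM. The other was the F-box ligase gene Fbxo40 in con-named replicate 5, at 187 CPM where the other 5 con-named libraries lay between 219 and 237 CPM. That library is farther from the HF-named libraries, which lay between 248 and 335 CPM, than the rest of its group, and the Fbxo40 call was kept in all 12 fits without 1 library (log2 fold change 0.40 to 0.52).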

How the results depend on the processing

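Trim63 was called higher under all 10 alternative settings and in all 12 fits without 1 library (log2 fold change 0.28 to 0.41 and 0.35 to 0.46). Library totals in place of TMM gave all genes a median log2 fold change of -0.13, against -0.01 with TMM, and 3065 calls, 483 higher and 2582 lower, against 2016, 1252 and 764. Of the members 1 was then higher (Trim63) and 1 lower (Stub1), and Trim54 (-0.086), Trim55 (-0.062) and Nedd4l (-0.045) changed sign. FPKM carry the same scaling by totals: limma on log2(FPKM + 1) gave 419 higher and 2484 lower, with 1 member higher, 1 lower, Trim54 at -0.083, Trim55 at -0.059 and Nedd4l at -0.031. With log2(FPKM + 0.1) these were 424, 2485, 1 and 1, with -0.084, -0.061 and -0.041. Without the low-count filter 1 member was higher, since Mdm2 (0.18, adjusted p = 0.0744) and Nedd4 (0.19, adjusted p = 0.116) missed the threshold, as did Ube2l3, Ube2h, Itch and Insr (adjusted p 0.0640 to 0.104). RLE size factors, mitochondrial transcripts left out and the filter of 1 CPM in 6 libraries each ended the call of Arrdc3 (adjusted p 0.05002 to 0.0518).

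The replicate number as a block (replicate block) gave 1131 calls, 748 higher and 383 lower, with 1 member higher, as Mdm2 had adjusted p = 0.0601 and Nedd4 0.101. It also ended the calls of Ube2l3, Ube2h, Itch, Arrdc3, Cacna1c, Phlda3 and Insr (adjusted p 0.0612 to 0.0956). On FPKM Hspb1 lost its call (adjusted p at most 0.0573), as did the genes that lost it with library totals: Ube2l3, Ube2h, Nr3c1, Itch, Arrdc3, Cacna1c, Insr and Hsp90aa1 (adjusted p 0.0800 to 0.539). Same-numbered libraries share only a number: correlations of their deviations from the group means ran from -0.161 to 0.090, and 1 of 6 was closest to its own number.

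Leaving out 1 library gave 1355 to 2550 calls, 836 to 1581 higher and 500 to 969 lower, 1 to 4 members higher and 0 lower. Trim54 ran from -0.031 to 0.065. Ratio differences ran from 0.32 to 0.41 for Trim63 to Trim54, 0.30 to 0.40 for Trim63 to Trim55, -0.012 to 0.066 for Trim55 to Trim54, -0.15 to -0.093 for Nedd4l to Nedd4, -0.06 to -0.02 for Wwp1 to Nedd4 and -0.12 to -0.059 for Nedd4l to Wwp1. Of 25 other genes tested this way, 18 kept their call in every such fit. The cause of these changes was not tested. Among the members depth was lowest for Cblb, at 230 to 377 counts per library.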
